A study of Mus musculus with 16 samples.

Results

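The 10 genes followed here in the mouse neocortex mark immature neurons, namely *Dcx*, *Sox4*, *Igfbpl1*, *Neurod1*, *Stmn1*, *Dpysl3*, *Dlx1*, *Dlx2*, *Cd24a* and *Marcksl1*. They are 10 of the 20134 genes that had a value on every array. They were chosen by name as genes of newborn, migrating and neurite-extending neurons, with earlier results of these data known. Each gene was read from the probe with the highest mean signal among its probes, and 16 probes belonged to the 10 genes. Of the genes that could be compared, 9 of 9 were lower in the control neocortex at P14 than at P7, and the largest fall between P7 and 10 weeks was that of *Cd24a*. After cortical hemisuction only *Igfbpl1* and *Cd24a* passed the limits used here. *Igfbpl1* was lower 4 weeks after neonatal surgery against the P35 control, and higher 1 week after adult surgery against the 10 week control. Its calls were lost under another background correction. Against the P35 control, both pools taken after adult surgery were lower for *Igfbpl1*, by -0.47 at 1 week and -0.83 at 4 weeks.

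The RNA came from the right neocortex, rostral from bregma, of male C57BL/6J mice. Control mice (NC) were taken at P7, P14, P35 and 10 weeks. In the neonatal brain hemisuction group (NBH, called NBI in the sample labels) the left cortex including the sensorimotor cortex was aspirated at P7, and the right side was taken 1 week later at P14 or 4 weeks later at P35. In the adult group (ABH, called ABI in the labels) the left cortex including the sensorimotor cortex was aspirated at 8 to 12 weeks of age, over an area that the methods give as reaching further from bregma than in NBH, and the right side was taken 1 week later, labelled 11 weeks, or 4 weeks later, labelled 15 weeks. The operation was made under sevoflurane anaesthesia, and no mutation or transgene is named for any group. The RNA of the animals of a group was pooled, so each of the 8 groups is 1 pool, measured once with Cy3 and once with Cy5 on 16 Agilent arrays. The 2 dyes repeat the measurement and not the animals. No test across animals was possible, and each change is given as the mean of the 2 within-dye differences ± their SD (n = 2 dyes).

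Immature neurons leave the cell cycle, migrate to their place in the cortex and then build axons and dendrites, and the genes of these steps are silenced as the cells mature. In rodents most cortical neurons arise before birth, and after birth new neurons come mainly from the ventricular-subventricular zone, whose neuroblasts move along the rostral migratory stream to the olfactory bulb. *Dcx* encodes a microtubule-binding protein of migrating neurons. *Stmn1* encodes a protein that destabilizes microtubules, and *Dpysl3* a collapsin response mediator protein of growth cones. *Marcksl1* encodes a membrane-bound regulator of actin. *Sox4* and *Neurod1* encode transcription factors of neuronal differentiation, and *Dlx1* and *Dlx2* encode homeobox factors of GABAergic neurons. *Cd24a* encodes a small surface glycoprotein of neuroblasts that ependymal and blood cells also carry, and *Igfbpl1* a secreted relative of the insulin-like growth factor binding proteins.

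All values below are log2 signals of the labeled channel minus the 75th percentile of the array, so 0 is the 75th percentile and a difference of 1 is a doubling. They are levels of one probe and were not compared between genes. A gene was compared if, in 1 or both pools, each array read its probe well above background, and if not all of its spots were saturated. It was called higher at 1.5-fold or more, and lower at 0.75-fold or less, with both dyes. Between 60.2% and 72.2% of the probes of an array were well above background and at most 2.05% were saturated. The dyes agreed least in the NBH 1 week and ABH 4 week comparisons, where the changes of all genes measured with Cy3 and Cy5 correlated at 0.19 and 0.28 (across genes, with no test), against 0.52 for NBH 4 weeks, 0.86 for ABH 1 week and 0.93 for P7 to P14. Control pools lay in one row of each slide and hemisuction pools in the other, so slide position and surgery cannot be told apart. The 10 neocortex markers, among them *Tbr1* and *Slc17a7*, were well above background in all 8 pools. In pooled tissue, fewer cells of a type and less RNA per cell cannot be told apart.

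Because the genes moved together in the controls, the stretches before their transcription starts are shown for 4 of them that differ in timing. RefSeq promoter windows on GRCm38.p6 were at hand for 6 of the 10 genes (*Dcx*, *Sox4*, *Neurod1*, *Dlx1*, *Dlx2*, *Marcksl1*), and the 250 bases before the start are printed 5′ to 3′ on the strand of the gene. *Dcx* stands for a steep early fall, *Sox4* for a fall spread over the ages, *Dlx2* for an early fall alone and *Marcksl1* for a late one. Capitals mark TAATTA, a homeobox core that reads the same on both strands, and CCAAT on either strand (ATTGG on the printed one). TAATTA occurs in 4.84% and CCAAT in 33.9% of the 32851 windows of this length.
Dcx, chrX:143933220-143933469, minus strand, the more upstream of 2 starts: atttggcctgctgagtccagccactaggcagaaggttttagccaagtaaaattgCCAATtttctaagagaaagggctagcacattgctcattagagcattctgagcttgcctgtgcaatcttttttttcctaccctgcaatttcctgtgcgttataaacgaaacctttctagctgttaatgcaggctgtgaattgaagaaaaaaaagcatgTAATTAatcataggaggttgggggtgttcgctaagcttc
Sox4, chr13:28953700-28953949, minus strand: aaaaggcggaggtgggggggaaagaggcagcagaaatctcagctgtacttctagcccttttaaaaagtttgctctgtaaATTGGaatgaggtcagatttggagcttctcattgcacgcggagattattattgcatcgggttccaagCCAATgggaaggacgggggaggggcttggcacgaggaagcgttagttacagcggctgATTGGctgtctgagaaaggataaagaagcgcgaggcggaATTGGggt
Dlx2, chr2:71546755-71547004, minus strand: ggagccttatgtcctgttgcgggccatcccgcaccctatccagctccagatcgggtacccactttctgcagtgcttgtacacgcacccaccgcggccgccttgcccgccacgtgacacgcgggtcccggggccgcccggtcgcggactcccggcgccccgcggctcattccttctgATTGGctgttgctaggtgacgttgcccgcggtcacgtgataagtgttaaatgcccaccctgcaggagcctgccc
Marcksl1, chr4:129513331-129513580, plus strand: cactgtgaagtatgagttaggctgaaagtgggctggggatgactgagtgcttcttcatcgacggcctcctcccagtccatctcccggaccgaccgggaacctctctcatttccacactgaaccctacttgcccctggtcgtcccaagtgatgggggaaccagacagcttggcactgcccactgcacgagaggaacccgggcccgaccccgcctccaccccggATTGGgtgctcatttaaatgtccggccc

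The windows differed in composition. The *Dcx* window held 3 CpG pairs, the *Sox4* window 11, the *Marcksl1* window 12 and the *Dlx2* window 24, while the median of all windows was 6. TAATTA was found once in the *Dcx* window, beginning 39 bases before the start, and in none of the other 5 genes. CCAAT was found 4 times before *Sox4* and once each before *Dcx*, *Dlx2* and *Marcksl1*. The E-box letters CAGCTG, present in 13% of all windows, were found only before *Sox4* among the 6 genes, and CAGATG, present in 14.4%, before none of them. No 2 of the matches overlapped. These matches are letters in a window and were not tested as binding sites. *Igfbpl1*, *Stmn1*, *Dpysl3* and *Cd24a* are named only.

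The control pools answered how far these genes decline between the first postnatal week and adulthood. Between P7 and P14, 9 of the 9 compared genes were called lower, where 17.6% of all 15190 compared genes were. Between P14 and P35 it was 5 of 9, against 7.65%, and between P35 and 10 weeks 3 of 9, against 1.48%. The last background, 237 of 15972 genes, depended on the scaling: it was 684 with quantile normalization and 1787 with each array scaled to its median, where 6 of the 9 genes were called lower. The median log2 change of the 9 genes was -1.31, -0.75 and -0.30 in the 3 steps, whereas the median of all compared genes was -0.04, -0.02 and 0.01. From P7 to 10 weeks all 9 were called lower, against 23.1% of the genes, with a median of -3.64. This median is the value of *Dpysl3*, whose spots were saturated at P7, so the median fall is at least this large. None of the 9 was called higher in any step, where 10.8%, 3.73% and 5.03% of all genes were in the 3 steps and 19.7% from P7 to 10 weeks. Consecutive steps share a pool, so they are not independent of each other.

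**Figure D1:**
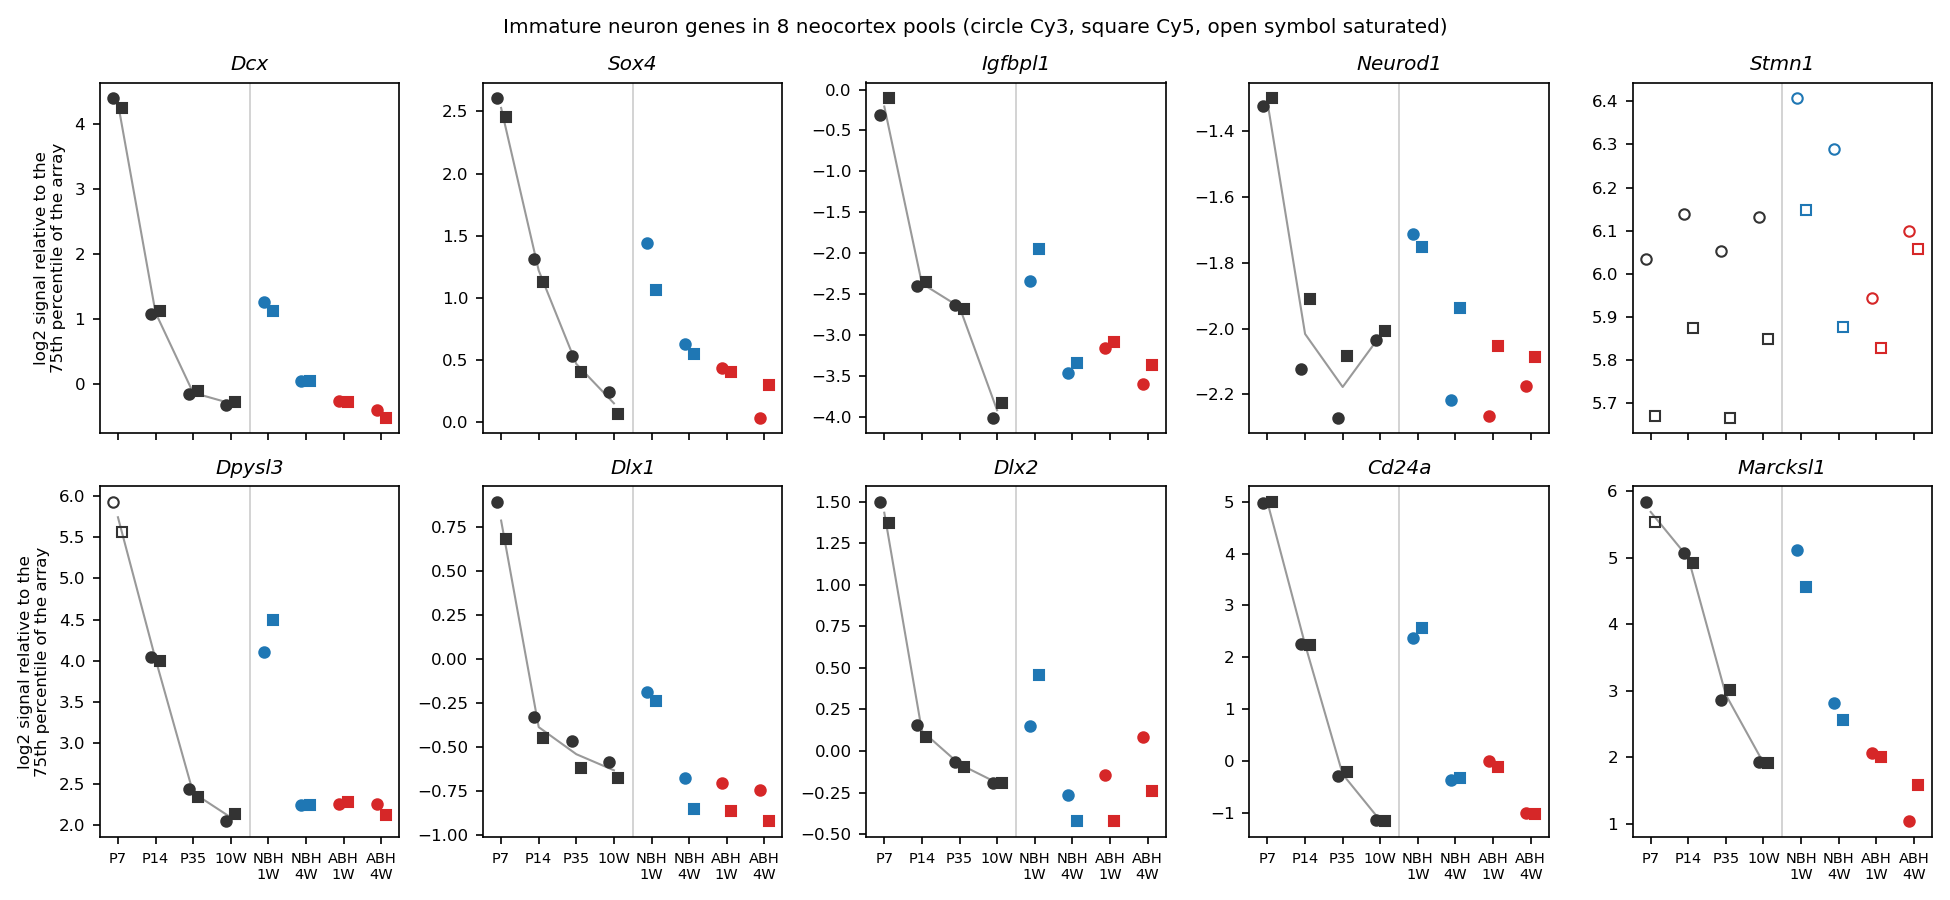
Log2 signal of each gene relative to the 75th percentile of the array (vertical axis, scaled separately for each gene) in the 8 pools (horizontal axis), with circles for Cy3, squares for Cy5, open symbols for saturated spots, black for controls, blue for NBH and red for ABH, and a grey line through the control means. The P7 control lies highest for the 9 genes other than *Stmn1*, and both *Stmn1* spots are saturated in every pool.

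*Dcx*, the microtubule-binding protein of migrating neurons, fell mostly in the first step. Its level with Cy3 and Cy5 was 4.39 and 4.24 at P7, 1.07 and 1.11 at P14, -0.17 and -0.12 at P35, and -0.33 and -0.28 at 10 weeks. The P7 pool thus lay far above the others, and the dyes ordered the 8 pools alike. The log2 change was -3.22 ± 0.13 from P7 to P14, a 9.34-fold fall that ranked 4 from the lowest among 15190 compared genes. It was -1.23 ± 0.005 from P14 to P35, and -0.16 ± 0.003 from P35 to 10 weeks, which was not called. The first week therefore held 69.8% of the whole log2 fall of -4.62 ± 0.14, a 24.6-fold difference. The other *Dcx* probes, both much dimmer, changed by -2.88 ± 0.07, a bound, and -2.70 ± 0.52 over the first step, and neither was above background on both arrays of a pool from P35 on.

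*Marcksl1*, the actin regulator, fell late. Its level was 5.84 with Cy3 and 5.55 with Cy5 at P7, where the Cy5 spot was saturated, 5.08 and 4.93 at P14, 2.87 and 3.01 at P35, and 1.92 and 1.91 at 10 weeks. P7 and P14 stood close together and well above the later ages. From P7 to P14 it changed by -0.69 ± 0.10, with -0.76 on the Cy3 array that was not saturated. From P14 to P35 the change was -2.06 ± 0.21, a 4.17-fold fall that ranked 10 from the lowest among 15448 compared genes. It was lower again at 10 weeks, by -1.02 ± 0.11. Since the P7 Cy5 spot was saturated, the first step held at least 18.3% of its total fall and the second at most 54.6%. On the Cy3 arrays, where no *Marcksl1* spot was saturated, the steps were -0.76, -2.21 and -0.94. It was the only one of the 9 genes whose largest step was not the first.

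*Dpysl3*, the growth-cone protein, was saturated on both P7 arrays, so its first step is a bound. It was at least 3.30-fold lower at P14 than at P7, with a log2 change of -1.72 ± 0.23. From P14, at 4.04 with Cy3 and 4.00 with Cy5, it fell to 2.45 and 2.35 at P35, a change of -1.62 ± 0.04. The 10 week levels were 2.05 and 2.14, a change of -0.30 ± 0.14 that was not called. A dimmer *Dpysl3* probe for another transcript, which was not saturated at any age, gave -3.43 ± 0.11 and -1.52 ± 0.21 for the first and second steps, a steeper first step than the bound, and -4.95 ± 0.27 from P7 to 10 weeks. *Stmn1*, the microtubule destabilizer, had both of its probes saturated on all 16 arrays, between 5.67 and 6.41 on this scale for the brighter one, so no change can be given for it in any comparison.

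Of the transcription factors, *Sox4* fell furthest between P7 and 10 weeks. *Sox4* was 2.60 and 2.45 with Cy3 and Cy5 at P7, 1.31 and 1.13 at P14, 0.53 and 0.41 at P35, and 0.24 and 0.06 at 10 weeks, a staircase without overlap of the ages. Its steps were -1.31 ± 0.02, -0.75 ± 0.04 and -0.32 ± 0.04, of which the first and second were called, and its total fall was 5.18-fold. The dimmer *Sox4* probe gave -1.11 ± 0.39 for the first step and was split between the dyes for the second, at 0.35 with Cy3 and -1.27 with Cy5. *Neurod1* was dim and changed least. It was -1.32 and -1.30 at P7, -2.12 and -1.91 at P14, -2.27 and -2.08 at P35 and -2.03 and -2.01 at 10 weeks, and the P14 values overlapped with those of both later ages. Only the first step, -0.70 ± 0.13, passed the limits, and it held 99.3% of the total. The second *Neurod1* probe changed by -0.54 ± 0.26 in that step and was not called.

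*Dlx1* and *Dlx2*, which lie beside each other on chromosome 2, moved in parallel. *Dlx1* was 0.89 and 0.68 at P7 with Cy3 and Cy5, -0.33 and -0.45 at P14, -0.46 and -0.62 at P35, and -0.59 and -0.68 at 10 weeks. *Dlx2* was 1.5 and 1.37 at P7, 0.16 and 0.09 at P14, -0.06 and -0.09 at P35, and -0.19 and -0.19 at 10 weeks. Each fell once, between P7 and P14, by -1.18 ± 0.06 and -1.31 ± 0.04. The later steps lay between -0.20 and -0.09 and none was called. The first week held 82.7% and 80.8% of the total falls, which were 2.68-fold and 3.09-fold.

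Of the surface and secreted products, *Cd24a* had the deepest fall of the 9 genes and *Igfbpl1* fell in separate drops. *Cd24a* was 4.99 with both dyes at P7, 2.26 and 2.23 at P14, -0.30 and -0.22 at P35 and -1.14 and -1.17 at 10 weeks. All 3 steps were called, at -2.74 ± 0.03, -2.51 ± 0.07 and -0.89 ± 0.07, and the 70.6-fold total fall ranked 2 from the lowest among 16120 compared genes. *Igfbpl1* was -0.30 and -0.11 at P7, -2.40 and -2.35 at P14, -2.64 and -2.68 at P35, and -4.01 and -3.83 at 10 weeks, so P14 and P35 formed a plateau between 2 drops. Its steps were -2.17 ± 0.10, -0.29 ± 0.06 and -1.26 ± 0.16. The second was not called, and the third ranked 16 from the lowest among 15972 compared genes. *Igfbpl1* held 34.0% of its 13.1-fold total fall in this last step, the largest such share among the 9 genes. Its probe was dim at 10 weeks, with processed signals of 63.8 (Cy3) and 85.1 (Cy5) beside array medians of 148 and 160. With other processing the last step ranged from -1.68 to -0.80 and the total from -4.18 to -2.92.

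**Figure D2:**
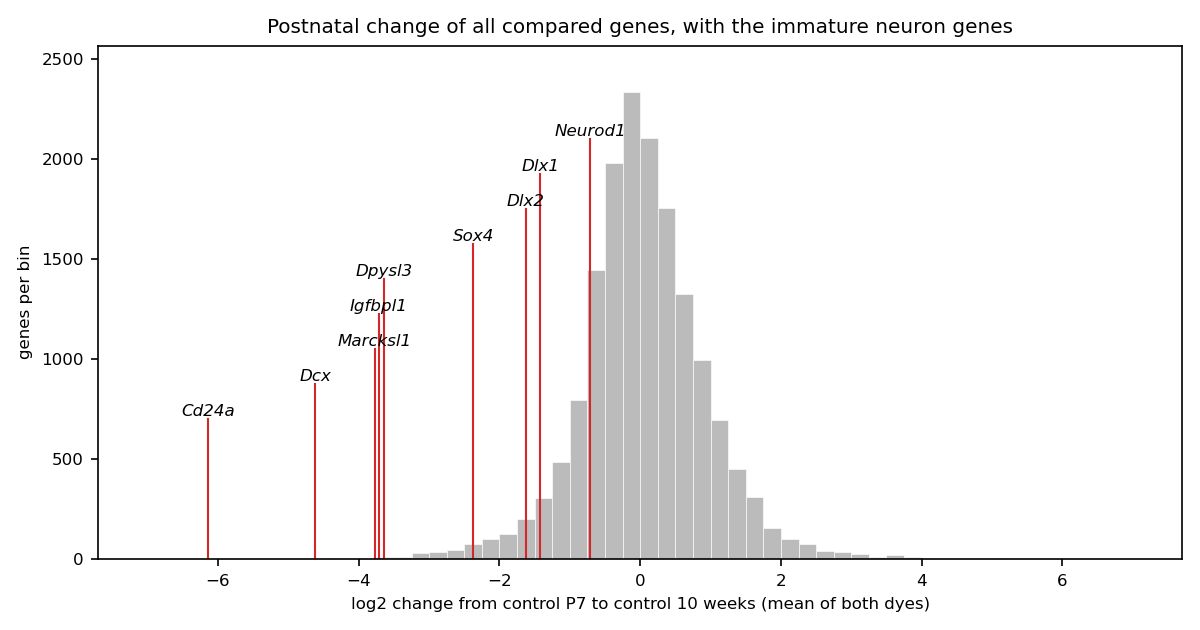
Number of genes (vertical axis, bins of 0.25) by their log2 change from the P7 to the 10 week control, mean of both dyes (horizontal axis), with red lines for the 9 compared immature neuron genes, drawn to staggered heights for legibility. The genes range from -6.14 for *Cd24a* to -0.71 for *Neurod1*, and all lie left of 0. The lines of *Dpysl3* and *Marcksl1* are bounds, because spots of theirs were saturated at P7.

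Over the 8 pool means the 36 pairs of these 9 genes correlated at a Pearson r between 0.77 and 0.99, median 0.95, with the lowest value for *Dlx2* and *Marcksl1* and the highest for *Dpysl3* and *Cd24a*. The points share arrays and scaling, and the P7 pool lies highest for all 9 genes. The P7 values of *Dpysl3* (both dyes) and *Marcksl1* (Cy5) were saturated. Over the 7 pools without P7, r ranged from 0.49 to 0.98, median 0.87. The genes most like *Dcx* over the 8 pools, outside the 10, were *Rac3* (r 0.998), *Bzw2* (0.997), *Asxl3* (0.996), *Trim67* (0.996) and *Snx7* (0.995), among 2707 genes that were measured and varied. *Rac3*, which encodes a small GTPase, was 5.15 at P7, 2.77 at P14, 1.64 at P35 and 1.53 at 10 weeks. *Trim67* fell further, from 3.64 to -2.60. Those most like *Dlx1* were *Cracd* (0.993), *Ablim3* (0.992), *Cdh15* (0.990), *Cep170* (0.990) and again *Bzw2* (0.989). These correlations are a description over 8 points and carry no test.

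Relatives of the 10 genes in the same protein families took several directions. Of 21 compared relatives, 8 were called lower and 3 higher from P7 to P14, against 17.6% and 10.8% of all genes, with a median log2 change of -0.43. Among the lower were *Sox11*, a factor of the same SoxC group as *Sox4*, at -2.35 ± 0.09, *Dpysl5*, a collapsin response mediator protein like *Dpysl3*, at -2.17 ± 0.15, and *Neurod6*, a relative of *Neurod1*, at -1.31 ± 0.01. The higher ones were *Igfbp6*, an insulin-like growth factor binding protein, at 2.89 ± 0.05, *Dclk3*, a doublecortin-like kinase, at 0.92 ± 0.03, and the homeobox gene *Dlx3* at 0.67 ± 0.07. From P14 to P35 the lower calls were 4 of 23, among them *Dpysl4* at -1.04 ± 0.08 and *Crmp1* at -0.99 ± 0.14, against 7.65% of all genes. The 2 higher calls, against 3.73%, were *Igfbp6* at 2.01 ± 0.02 and *Dlx4*, at least 2.55-fold. None of 23 relatives was called from P35 to 10 weeks, against 1.48% of all genes lower and 5.03% higher.

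A second list held 31 other genes of immature neurons and migration, of which *Sox11* was also counted among the relatives. From P7 to P14, 13 of 24 compared genes were called lower and none higher (median -0.60), against 17.6% and 10.8% of all genes. From P14 to P35 it was 6 of 26 lower, against 7.65%, and from P35 to 10 weeks 3 of 26, against 1.48%. None was higher in either step, against 3.73% and 5.03%. *St8sia2*, which builds polysialic acid on NCAM, changed by -3.01 ± 0.11 in the first step and *Sp8*, a zinc-finger factor of olfactory bulb interneurons, by -1.79 ± 0.01. In the second step *Nrep* changed by -1.34 ± 0.05, the chemokine receptor gene *Cxcr4* by -1.13 ± 0.29, and *Tubb2b*, a beta-tubulin of young neurons saturated on 1 of 2 arrays at P14, was at least 2.11-fold lower. Dividing-cell genes fell beside them. From P7 to P14, 9 of 10 were lower, and 8 of 10 from P14 to P35, against 17.6% and 7.65% of all genes. Mature neuron genes went up, with 10 of 15 higher in the first step, against 10.8%.

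Marker lists of neighbouring regions also moved between the control pools. The 10 striatal markers were all called higher from P7 to P14, against 10.8% of all genes. Their summed scaled signal was 38.8 at P7, 195 at P14, 187 at P35 and 139 at 10 weeks. In the last step 7 of 10 were called lower, against 1.48%. The olfactory bulb markers had sums between 5.91 and 7.09 over the 4 ages. Of 9 bulb markers compared from P7 to P14, 2 were called lower and 1 higher, against 17.6% and 10.8% of all genes. In each later step 1 of 10 was called higher, against 3.73% and 5.03%. In these later steps none was called lower, against 7.65% and 1.48%, and *Igfbpl1* dropped in the last of them. All 10 striatal markers, and 8 to 10 bulb markers, were well above background in each control pool. The part of these regions in the decline was not tested.

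Each hemisuction pool was then compared with the control nearest in age. NBH at 1 and 4 weeks was set against P14 and P35, and both ABH pools against the 10 week control, which they share. The NBH pools had the labelled age of their controls. Both ABH pools were labelled older than theirs, so age and surgery differ together in the ABH comparisons. The part of age in the ABH changes was not tested. At 1 week after neonatal surgery none of the 9 genes was called, where 0.96% of 15213 genes were called higher and 1.09% lower. At 4 weeks 1 gene was called lower, against 1.98% of 15592, and none higher, against 0.436%. At 1 week after adult surgery 2 genes were called higher, against 6.13% of 16032, and none lower, against 9.21%. At 4 weeks after adult surgery none was called, against 0.799% higher and 0.693% lower of 16024. The median log2 change of the 9 genes was 0.18, -0.15, 0.12 and 0.01 in this order, beside 0.07, 0.02, -0.05 and 0.05 for all genes. At ABH 4 weeks it was -0.08 with Cy3 and -0.04 with Cy5 taken alone.

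**Figure D3:**
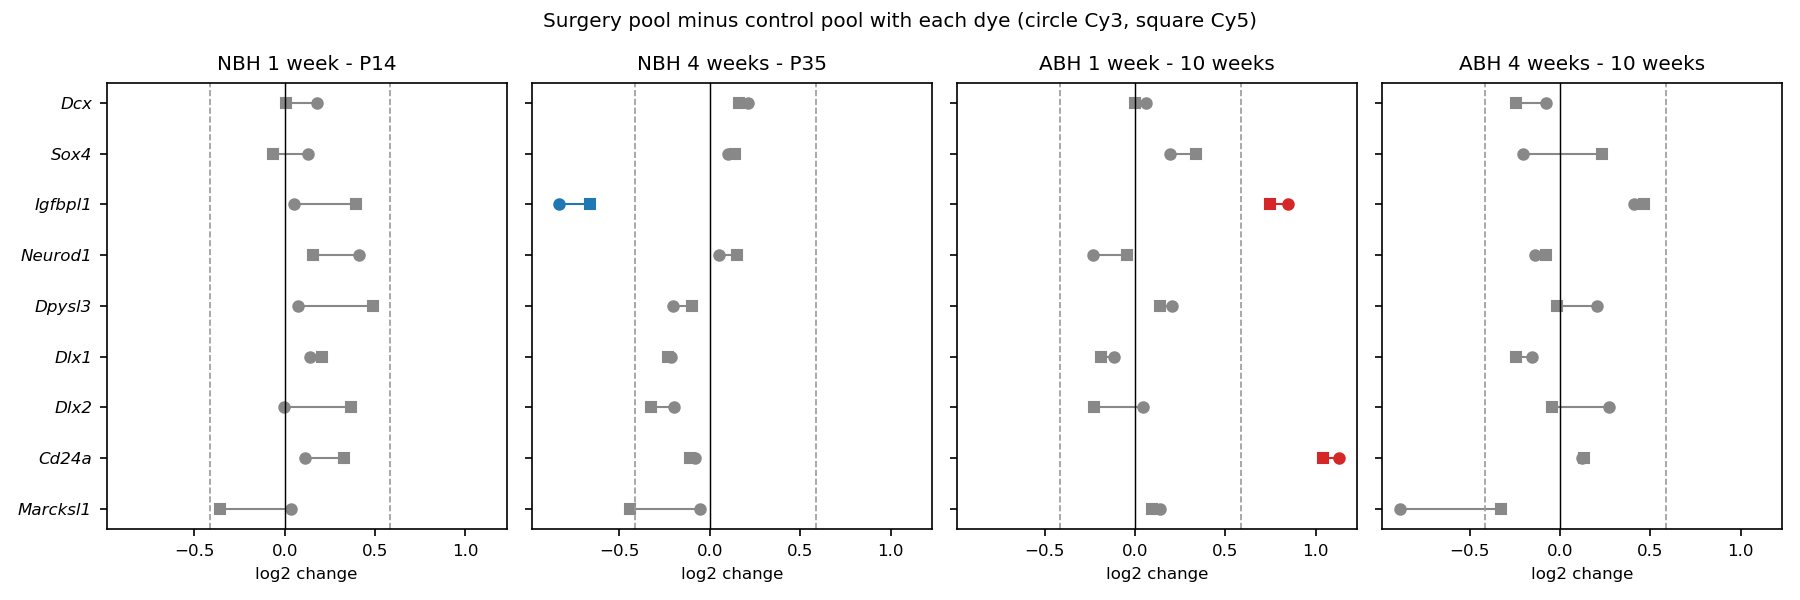
Log2 change of each compared gene (rows) between hemisuction pool and control with Cy3 (circle) and Cy5 (square), joined by a line, with dashed lines at 0.75-fold and 1.5-fold, red for called higher and blue for called lower. *Igfbpl1* passes the lower limit at NBH 4 weeks and the upper one at ABH 1 week, where *Cd24a* passes it too, and the other points lie inside the limits with at least 1 dye.

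*Igfbpl1* was the only one of these genes called after neonatal surgery. Its level at NBH 1 week was -2.34 with Cy3 and -1.95 with Cy5, above the P14 values of -2.40 and -2.35, and the change of 0.22 ± 0.24 was no larger than the gap between the dyes. At NBH 4 weeks it was -3.47 and -3.34, below both P35 values of -2.64 and -2.68. The change was -0.75 ± 0.12, a 1.68-fold difference. With the background corrected by normexp on the median signal, with an added offset of 50, it was -0.41 and not called. The offset makes the folds of dim probes smaller. The processed signals of *Igfbpl1* were 172 and 210 (Cy3 and Cy5) at P35 and 82.9 and 112 at NBH 4 weeks. The part of the offset in the lost call was not tested. With 2-fold limits the NBH 4 week change was not called either. After adult surgery *Igfbpl1* was -3.16 and -3.09 at 1 week and -3.60 and -3.37 at 4 weeks, both above the 10 week control at -4.01 and -3.83. The change was 0.80 ± 0.07 at 1 week, a 1.74-fold difference, and 0.44 ± 0.04 at 4 weeks, which was not called. The 1 week value was 0.47 and not called with normexp. The NBH 4 week, ABH 1 week and ABH 4 week pools all lay between the P35 and the 10 week control, and against the P35 control the 2 ABH pools were lower, by -0.47 and -0.83.

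*Cd24a* was called at 1 week after adult surgery alone. Its level at ABH 1 week was -0.01 with Cy3 and -0.12 with Cy5, against -1.14 and -1.17 in the 10 week control, a change of 1.08 ± 0.06 or 2.12-fold. At 4 weeks it was -1.02 and -1.03, a change of 0.13 ± 0.007, so the level stood again near the control. The ABH 1 week level lay close to that of the P35 control, -0.30 and -0.22, from which it differed by 0.19. After neonatal surgery it was 2.38 and 2.56 at 1 week and -0.38 and -0.33 at 4 weeks, with changes of 0.22 ± 0.15 and -0.10 ± 0.02.

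Read from its brightest probe, *Dcx* hardly left its control in any of the comparisons. It was 1.25 and 1.12 at NBH 1 week, 0.05 with both dyes at NBH 4 weeks, -0.27 and -0.28 at ABH 1 week and -0.41 and -0.52 at ABH 4 weeks. The changes were 0.09 ± 0.12, 0.19 ± 0.03, 0.03 ± 0.04 and -0.16 ± 0.12, none of them called. A much dimmer *Dcx* probe that could be compared at NBH 1 week gave 0.36 ± 0.03 there, also not called. *Sox4* gave 0.03 ± 0.14, 0.12 ± 0.03, 0.27 ± 0.10 and 0.01 ± 0.31 in the same order of comparisons. The dimmer *Sox4* probe gave -0.11 ± 0.78, -0.32 ± 0.61, 0.01 ± 0.08 and -0.36 ± 0.34, none of them called. The ABH 1 week value of *Sox4* was 0.65 and called higher when each array was scaled to its median, a setting in which the median of all genes was itself 0.33.

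*Dlx1* was 0.17 ± 0.05 above its control at NBH 1 week and -0.22 ± 0.01 at NBH 4 weeks, and -0.15 ± 0.05 and -0.20 ± 0.06 in the ABH pools. *Dlx2* had 0.18 ± 0.26, -0.26 ± 0.09, -0.09 ± 0.19 and 0.11 ± 0.22, with the dyes on opposite sides of 0 in all but the NBH 4 week comparison. None of these passed the limits. *Neurod1* had 0.28 ± 0.18, 0.10 ± 0.07, -0.14 ± 0.13 and -0.11 ± 0.05, and its second probe gave -0.12 ± 0.16 for NBH 1 week, on the other side of 0. *Dpysl3* had 0.28 ± 0.30, -0.15 ± 0.07, 0.17 ± 0.05 and 0.09 ± 0.16. Its much dimmer second probe, at -4.09 in the ABH 1 week pool and -4.61 in the 10 week control, gave 0.53 ± 0.12, also not called.

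*Marcksl1* showed the largest gap between the dyes. It was 5.11 with Cy3 and 4.57 with Cy5 at NBH 1 week, 2.82 and 2.57 at NBH 4 weeks, 2.06 and 2.00 at ABH 1 week and 1.04 and 1.58 at ABH 4 weeks. The ABH 4 week pool lay below the 10 week control of 1.92 and 1.91 with both dyes, by -0.88 and -0.33, a mean of -0.61 ± 0.39. The Cy5 difference alone missed the 0.75-fold limit. Among 16024 compared genes 0.842% had a lower mean in this comparison. The other changes were -0.16 ± 0.28, -0.25 ± 0.28 and 0.12 ± 0.03. The ABH 4 week pool was labelled older than its control, and *Marcksl1* still changed by -1.02 between the P35 and 10 week controls. The part of age in its ABH 4 week change was not tested.

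Placed on the postnatal scale, the NBH 1 week pool lay above the P14 control mean for 8 of the 9 genes, with *Marcksl1* below it, and below the P7 mean for all 9. The differences from P14 were small, from -0.16 to 0.28, while 35.1% of all compared genes lay below 0. The NBH 4 week pool lay within the range of the P14, P35 and 10 week control means for 7 genes and below it for *Dlx1* and *Dlx2*. The ABH 1 week pool lay within it for 7 and below it for *Dlx1* and *Dlx2*, and the ABH 4 week pool within it for 6 and below it for *Dcx*, *Dlx1* and *Marcksl1*.

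Other genes of immature neurons and migration did not move as one group after surgery. At NBH 1 week none of 25 was called, against 0.96% of all genes called higher and 1.09% lower. At NBH 4 weeks 5 of 26 were lower, against 1.98% of all genes, and none higher, against 0.436%. The lower ones were led by *Calb2*, a calcium-binding protein of interneurons, at -1.11 ± 0.16, *Sp8* at -0.78 ± 0.09 and *St8sia2* at -0.74 ± 0.27. At ABH 1 week 3 of 26 were higher and 4 lower, against 6.13% and 9.21% of all genes. *Cxcr4* was at least 5.21-fold higher, *Tubb2b* changed by 0.95 ± 0.06 and *Nnat* by 0.76 ± 0.14, while *St8sia2* changed by -1.03 ± 0.23, *Calb2* by -0.62 ± 0.13 and *Sp8* by -0.53 ± 0.15. At ABH 4 weeks 1 of 26 was lower, *Calb2* at -1.34 ± 0.17, against 0.693% of all genes, and none higher, against 0.799%. Of 23 family relatives compared at NBH 4 weeks, 1 was lower, *Dlx5* (-0.58 ± 0.09), against 1.98% of all genes, and none higher, against 0.436%. At ABH 1 week 2 of 23 were higher, *Igfbp2* (1.38 ± 0.10) and *Igfbp5* (0.69 ± 0.04), against 6.13%. There 1 was lower, *Dlx3* (-0.47 ± 0.02), against 9.21%. None of 21 relatives was called at NBH 1 week, against 0.96% of all genes higher and 1.09% lower. At ABH 4 weeks none of 23 was called, against 0.799% and 0.693%.

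**Figure D4:**
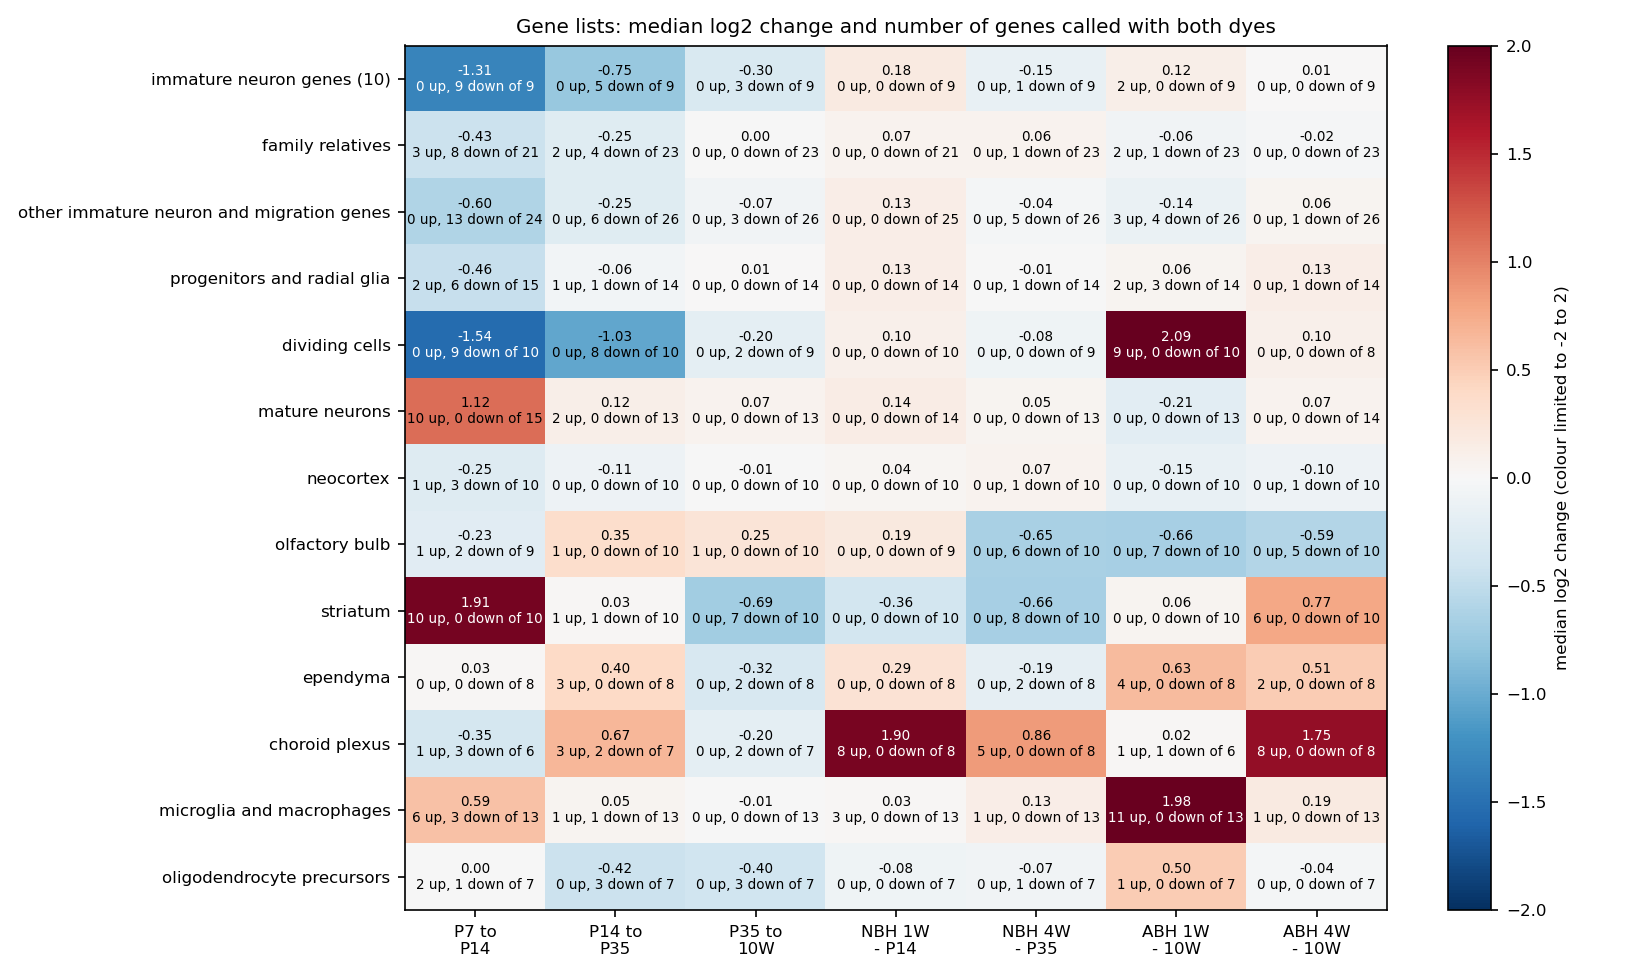
Median log2 change of gene lists (rows) in 3 control steps and 4 hemisuction comparisons (columns), as colour and as the upper number of each cell, with the number of genes called higher (up) and lower (down) of those compared. The immature neuron genes are blue across the control steps, and the bulb, striatum, choroid plexus, microglia and dividing-cell lists change in the hemisuction columns.

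Markers of other regions and cell types also changed after surgery, in comparisons with and without a call among the immature neuron genes. At NBH 4 weeks, where *Igfbpl1* was lower, 6 of 10 olfactory bulb markers were lower (median -0.65) and 8 of 10 striatal markers (median -0.66). The share of all genes called lower there was 1.98%. The summed signal of the bulb list was 6.65 in the P35 control and 5.05 in the NBH pool, and that of the striatal list 187 and 134. The bulb list shares *Calb2* and *Sp8* with the list of other immature neuron genes. At ABH 1 week, where *Igfbpl1* was higher, bulb markers were again lower, 7 of 10 with a median of -0.66, against 9.21% of all genes. At ABH 4 weeks 5 of 10 bulb markers were lower with a median of -0.59, against 0.693%. There 6 of 10 striatal markers were higher, against 0.799%.

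At ABH 1 week, where *Cd24a* and *Igfbpl1* were higher, 9 of 10 dividing-cell genes were higher with a median of 2.09. So were 11 of 13 microglia and macrophage genes with a median of 1.98. The share of all genes called higher there was 6.13%. The summed signal of the microglia list was 96.3 in the 10 week control, 206 at ABH 1 week and 110 at ABH 4 weeks. Ependymal markers were higher for 4 of 8 at 1 week and 2 of 8 at 4 weeks, against 6.13% and 0.799% of all genes. Their sum was 3.53 in the control and 5.32 and 5.09 in the ABH pools. None of the 13 mature neuron genes compared at ABH 1 week was called, against 6.13% of all genes higher and 9.21% lower. Their median was -0.21. Choroid plexus markers were higher for 8 of 8 genes at NBH 1 week and at ABH 4 weeks, against 0.96% and 0.799% of all genes. In these pools none of the 9 immature neuron genes was called. At NBH 4 weeks 5 of 8 choroid plexus markers were higher, against 0.436%. The part of these cell types and regions in the changes of *Cd24a* and *Igfbpl1* was not tested.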

How the data were processed

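RNA pools were hybridized to Agilent mouse 8 × 60 K arrays, and the authors quantified the spots with Feature Extraction 11.0.1.1 (mm9 per the file headers). The deposited values are spot intensities, as a median signal with its local background and as a processed signal that is background-subtracted and detrended. The deposited value table repeats that processed signal for the dye used, without scaling between arrays (differences up to 0.497% above 100). Here control spots and outliers were left out, replicate spots averaged, and log2(processed signal) set relative to the 75th percentile of each array. Values not above background were held at the higher of their own signal and the lowest signal above background on that array, and a fold resting on such a value or on a saturated group is a bound. Probes were named through RefSeq accessions (26582 of 55681 matched). The 10 genes, the lists and the limits were chosen with earlier results of these data known. For named genes, the rule took all 10, up to 3 called genes per direction, comparison and list among the relatives and other immature neuron genes, and the 5 genes most correlated with *Dcx* and *Dlx1*. The 11 alternatives were another background correction (normexp with an offset of 50), other scalings, no filter on dim probes, other limits, the mean over probes, 1 dye alone and the P35 control for ABH. The steps were tested on simulated data. Python 3.11.15, pandas 2.3.3 and limma 3.58.1 (normexp) in R 4.3.3 were used. The number of pools, 1 per group, limits the precision.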

Additional observations from a re-analysis of the deposited data

Results flagged for a closer look

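Several genes changed in opposite directions in 2 hemisuction comparisons with both dyes, and none of these differences between comparisons was tested. The 2 ABH comparisons share the 10 week control, and both ABH pools were labelled older than it. At 1 week the ABH change minus the NBH change was -0.42 for *Neurod1* (0.28 and -0.14 in NBH and ABH) and -0.33 for *Dlx1* (0.17 and -0.15). At 4 weeks it was 1.19 for *Igfbpl1* (-0.75 and 0.44), -0.35 for *Dcx* (0.19 and -0.16), -0.21 for *Neurod1* (0.10 and -0.11) and 0.22 for *Cd24a* (-0.10 and 0.13). Within NBH the 4 week change minus the 1 week change was -0.97 for *Igfbpl1* (0.22 and -0.75), -0.43 for *Dpysl3* (0.28 and -0.15), -0.40 for *Dlx1* (0.17 and -0.22) and -0.32 for *Cd24a* (0.22 and -0.10). Within ABH it was -0.19 for *Dcx* (0.03 and -0.16) and -0.72 for *Marcksl1* (0.12 and -0.61). Of these changes, that of *Igfbpl1* at NBH 4 weeks was the only one called, and under the alternatives it ranged from -0.98 to -0.41. Others were small or lost their sign. *Dcx* at ABH 1 week was 0.06 with Cy3 and 0.001 with Cy5. Under the alternatives *Dcx* at NBH 4 weeks ranged from -0.04 to 0.23 and *Neurod1* there from -0.13 to 0.15. *Cd24a* at ABH 4 weeks ranged from -0.77 to 0.15. Over all genes the dyes correlated at only 0.19 at NBH 1 week and 0.28 at ABH 4 weeks. For *Neurod1* the second probe lay on the other side of 0 at NBH 1 week, at -0.12.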

How the results depend on the processing

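No paired analysis was possible because each group is 1 pool and its 2 arrays differ in dye, not in animals. The fall of the 9 genes from P7 to P14 and from P7 to 10 weeks was called for at least 7 of 9 under every alternative run. Over the summarised counts and medians, 146 values stayed within the dye spread or within 1.5 times the count, 38 moved further and 6 changed sign. Of 594 values of single genes under the alternatives, 43 had the other sign, 40 of them in hemisuction comparisons and 11 with the P35 control, and 1 of the 43 had been called. With normexp the medians were -1.27 (P7 to P14), -2.92 (P7 to 10 weeks) and 0.17 (ABH 1 week). It left 0 lower calls at NBH 4 weeks, where 118 of all 15592 genes were lower. At ABH 1 week it left 1 higher call, where 766 of all 16032 genes were higher. Quantile normalization gave -1.26 (P7 to P14) and -0.18 (NBH 4 weeks). Scaling to the median gave -1.43, -0.80 and -0.60 for the 3 control steps, -4.11 from P7 to 10 weeks, -0.11 at NBH 4 weeks and 0.50 at ABH 1 week, with 6 lower calls from P35 to 10 weeks (*Dcx*, *Sox4* and *Dpysl3* added). It moved the median of all genes to -0.16 (P7 to P14), -0.29 (P35 to 10 weeks), -0.46 (P7 to 10 weeks) and 0.33 (ABH 1 week). Without scaling the medians were -1.51, -0.59 and -0.40 for the control steps, -0.013 (NBH 1 week, sign turned), -0.38 (NBH 4 weeks), 0.18 (ABH 1 week) and -0.15 (ABH 4 weeks, sign turned). There were 3 lower calls at NBH 4 weeks (*Dlx1* and *Dlx2* added), where 1206 of all 15592 genes were lower, against 309 in the main setting. At ABH 4 weeks there was 1 (*Marcksl1*), where 487 of all 16024 genes were lower, against 111 in the main setting. The medians of all genes were -0.24, 0.14 and -0.09 for the control steps, -0.14 from P7 to 10 weeks, and -0.13, -0.21, 0.02 and -0.11 for the hemisuction pools. The mean over all probes gave -0.61 (P14 to P35), -0.14 (P35 to 10 weeks) and -0.10 (NBH 4 weeks). With 2-fold limits 1 gene was lower from P35 to 10 weeks, 0 at NBH 4 weeks and 1 higher at ABH 1 week. Against the P35 control ABH 1 week had 0 higher and 1 lower (*Marcksl1*) with a median of -0.13, ABH 4 weeks 3 lower (*Igfbpl1*, *Cd24a* and *Marcksl1*) with a median of -0.30, and *Igfbpl1* at ABH 1 week turned to -0.47.

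With 1 dye alone the medians lay between -1.34 and -1.32 (P7 to P14), -0.29 and -0.20 (P35 to 10 weeks), -3.71 and -3.41 (P7 to 10 weeks), 0.11 and 0.21 (NBH 1 week), -0.11 and -0.080 (NBH 4 weeks) and -0.077 and -0.044 (ABH 4 weeks, sign turned). The lower calls were 1 with Cy3 and 2 with Cy5 at NBH 4 weeks (*Marcksl1* added, -0.44), and 1 with Cy3 (*Marcksl1*, -0.88) and 0 with Cy5 at ABH 4 weeks. Scaling also moved the share of lower among all called genes. It was 62.1% from P7 to P14 (74.2% median-scaled, 81.9% unscaled), 67.2% from P14 to P35 (38.5% unscaled), 22.8% from P35 to 10 weeks (73.5% quantile, 84.5% median-scaled, 42.5% unscaled) and 54.1% from P7 to 10 weeks (84.7% median-scaled, 66.0% unscaled). It was 53.2% at NBH 1 week (67.5%, 65.9% and 87.7% in the same order), 82.0% at NBH 4 weeks (97.9% unscaled), 60.0% at ABH 1 week (32.6% quantile, 21.8% median-scaled) and 46.4% at ABH 4 weeks (90.9% unscaled). The causes were not tested.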
